A study of Saccharomyces cerevisiae BY4741 with 6 samples.

Results

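Gluconeogenesis, anaplerosis and dicarboxylate transport were followed through 7 genes of the budding yeast Saccharomyces cerevisiae: PCK1, FBP1, SFC1, DIC1, MAE1, PYC1 and PYC2. They were taken by systematic name from a table of 5631 genes and RNA features, and all 7 were present and tested. Poly(A) RNA was sequenced from 3 cultures of a pex3 deletion strain and 3 cultures of its parent, labelled pex3 and WT here. Both strains have the BY4741 background: they are MATa and carry his3[delta]1 in histidine synthesis, leu2[delta]0 in leucine synthesis, met15[delta]0 in methionine synthesis and ura3[delta]0 in uracil synthesis. The deletion strain carries in addition pex3::kanMX4, which stops the formation of functional peroxisomes. All cultures grew in shake flasks at 30 degrees Celsius on mineral medium with 0.5% acetate, after a preculture on 0.5% glucose, and were harvested in growth at an optical density of 0.5. The labels call the cultures biological replicates, and do not say whether the deletion strain was represented by more than one clone. The study asked whether the loss of peroxisomes alters the transcriptome on a carbon source that relieves glucose repression.

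On acetate, yeast builds sugars from acetyl-CoA. The glyoxylate cycle turns acetyl-CoA into succinate and malate. Succinate enters mitochondria through the carrier Sfc1 in exchange for fumarate, and Dic1 exchanges dicarboxylates for phosphate across the same membrane. Oxaloacetate is converted to phosphoenolpyruvate by Pck1, the entry step of gluconeogenesis, and Fbp1 carries out the fructose bisphosphatase step near its end. Mae1, the mitochondrial malic enzyme, turns malate into pyruvate and makes NADPH, while the biotin enzymes Pyc1 and Pyc2 carboxylate pyruvate in the cytosol to refill oxaloacetate. Several of the gluconeogenic genes are known to be switched on in the absence of glucose by the activators Cat8 and Sip4 through a promoter motif named the carbon source responsive element.

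The upstream region of PCK1 is shown because it holds more copies of the core of this element than any other upstream region of the 7 genes. The letters CC, any base, TT, any 3 bases and CCG were searched in a row on both strands in the 600 bases before each start codon of the R64 genome, a window that can reach into a neighbouring gene. They occurred in 188 of 6005 such windows, or 3.13%. Among the 7 genes, PCK1 had 3 matches and SFC1 had 1. FBP1, DIC1, MAE1, PYC1 and PYC2 had none in this window. The PCK1 stretch lies 572 to 342 bases before the start codon, at chrXI:630580-630810 on the plus strand, with the 3 matches in capitals.
PCK1: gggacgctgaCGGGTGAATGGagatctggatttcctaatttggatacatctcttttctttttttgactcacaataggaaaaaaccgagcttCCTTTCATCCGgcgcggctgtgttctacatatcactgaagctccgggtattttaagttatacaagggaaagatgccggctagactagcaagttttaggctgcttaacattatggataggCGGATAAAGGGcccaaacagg

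PYC1 (YGL062W, chrVII:385196-388732, plus strand) and PYC2 (YBR218C, chrII:658707-662249, minus strand) encode isoenzymes. A stretch of PYC1 is shown because reads that lie, with any mate, wholly within the run it shares with PYC2 cannot be assigned by sequence alone. The coding sequences of 3537 and 3543 bases were 85.1% identical in a global alignment. Of the 50-base stretches of PYC1, 8.46% also occurred elsewhere in R64, and so did 8.44% of those of PYC2. For the other 5 genes this share was 0. The longest shared run was 200 bases and starts at coding base 505 of PYC1 and 508 of PYC2. It is in capitals in the PYC1 stretch at chrVII:385695-385904, with 5 PYC1 bases on either side. The read length is not given in the sources used here, so the values of PYC1 and PYC2 are uncertain to the extent that their reads were shared.
PYC1: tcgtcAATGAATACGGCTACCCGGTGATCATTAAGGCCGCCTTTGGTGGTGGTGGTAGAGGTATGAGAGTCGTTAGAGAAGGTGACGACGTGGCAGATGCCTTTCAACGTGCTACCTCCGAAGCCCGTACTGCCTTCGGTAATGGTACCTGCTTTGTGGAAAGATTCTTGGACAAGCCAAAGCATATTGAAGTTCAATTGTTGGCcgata

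The remaining genes are PCK1 (YKR097W, chrXI:631152-632801, plus strand), FBP1 (YLR377C, chrXII:873746-874792, minus strand), SFC1 (YJR095W, chrX:609773-610741, plus strand), DIC1 (YLR348C, chrXII:826977-827873, minus strand) and MAE1 (YKL029C, chrXI:382716-384725, minus strand). Each of the 7 genes has 1 uninterrupted coding exon, and R64 places no other gene over any of them.

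The libraries held between 6782522 and 9410398 counts, and the smallest count of any of the 7 genes was 747, for DIC1 in WT replicate 2. The first principal component of log2 CPM (read counts brought to one library size with TMM factors) carried 43.6% of the variance and did not part the strains: WT replicate 1 lay at 20.49 on it, pex3 replicate 1 at -12.25 and the other 4 libraries between -6.205 and 1.561. On the second, with 22.7% of the variance, the pex3 libraries lay at 7.063, 1.385 and 8.498. The WT libraries lay at 2.861, -11.14 and -8.665 on it, so that the strains overlapped only through WT replicate 1. The a-specific receptor gene STE2 averaged 246 ± 14.3 CPM in pex3 and 268 ± 11.4 CPM in WT (SD, n = 3 each). The alpha-specific genes STE3 and MF(ALPHA)1 stayed under 33 CPM in each library. HIS3, partly deleted in both strains, averaged 61.7 CPM in each strain. PEX3 itself was not analysed here, so the labels could not be checked at the deleted gene.

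Levels between genes were compared as CPM per kb of coding length. PCK1 was the highest of the 7, at 1846 ± 104 in pex3 and 1956 ± 302 in WT (SD, n = 3 each), and its mean stood at the 99.2 percentile of the genes tested. SFC1 followed, at 898 ± 133 CPM per kb in pex3 and 1064 ± 113 in WT, and FBP1 at 891 ± 67.3 in pex3 and 882 ± 78.2 in WT. These values of SFC1 and FBP1 overlapped, with SFC1 the higher of the pair in 5 of 6 libraries. MAE1 came next at 458 ± 19.3 CPM per kb in pex3 and 349 ± 2.43 in WT. PYC1 measured 199.8 ± 4.50 CPM per kb in pex3 and 212 ± 6.45 in WT, and PYC2 measured 183 ± 22.8 in pex3 and 208 ± 14.2 in WT, so that this pair overlapped too. DIC1 was the lowest, at 129 ± 16.8 CPM per kb in pex3 and 121 ± 2.11 in WT, and still stood at the 77.0 percentile. Apart from the pairs SFC1 with FBP1 and PYC1 with PYC2, the ranges of neighbours in this order over the 6 libraries did not overlap. Among 12 listed genes for mitochondrial metabolite carriers SFC1 ranked 1 and DIC1 ranked 9 by level per kb, with OAC1, MPC1 and AGC1 below it. The list does not hold every such carrier, and PET9, at 2485 to 3508 CPM over the libraries, was not in it.

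**Figure D1:**
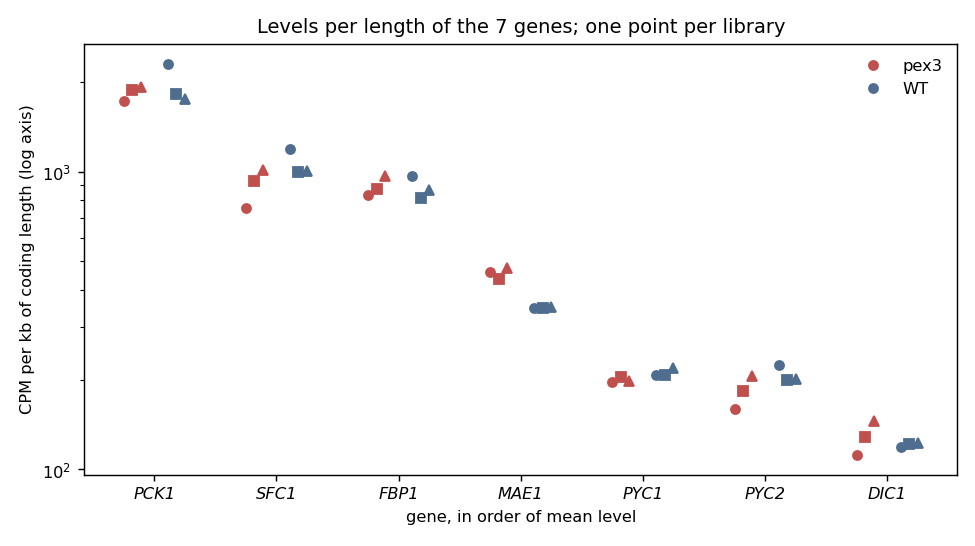
Level of each of the 7 genes as CPM per kb of coding length on a log axis, with 1 point per library, pex3 in red on the left of each gene and WT in blue on the right (circle, square and triangle for replicates 1, 2 and 3). PCK1 stands highest and DIC1 lowest in every library, and MAE1 is the gene whose pex3 and WT points are furthest apart relative to their spread.

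The strains were then compared gene by gene. In the edgeR quasi-likelihood test with Benjamini-Hochberg adjustment over 5628 genes, 0 of the 7 genes passed an adjusted p of 0.05, where 0.178% of all genes did (0.142% higher and 0.0355% lower in pex3). At an unadjusted p under 0.05 there was 1, MAE1, against a share of 9.08% of all genes (3.93% higher in pex3). DESeq2 called 1 of the 7, also MAE1, against 1.03% of all genes (0.462% higher in pex3). The median log2 fold change of pex3 over WT was -0.083 over the 7 genes and 0.006 over all genes tested.

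MAE1, which encodes the malic enzyme, measured 928, 879 and 956 CPM in the pex3 libraries, against 701, 698 and 707 CPM in the WT libraries. All 3 pex3 libraries lay above all 3 WT libraries. Genes whose libraries were apart in this direction made up 8.72% of those tested. The lowest pex3 value was over 170 CPM above the highest WT value. The SD was 38.9 CPM in pex3 and 4.88 CPM in WT, and an SD from 3 libraries is itself uncertain. In RNA from a whole culture, more cells with a transcript and more of it per cell cannot be told apart. The log2 fold change was 0.39 (SE 0.07, 95% interval 0.23 to 0.55), an edgeR adjusted p of 0.118. The DESeq2 adjusted p was 0.000121. Over the alternatives tried, the log2 fold change of MAE1 stayed between 0.36 and 0.42, while its adjusted p ranged from 0.000121 to 0.654.

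PCK1, for phosphoenolpyruvate carboxykinase, measured 2854, 3105 and 3180.1 CPM in pex3, against 3801, 2995 and 2888 CPM in WT. WT replicate 1 was the highest, and the other 5 libraries of the strains were interleaved. The log2 fold change was -0.08 (95% interval -0.35 to 0.18, edgeR adjusted p 0.834). Without WT replicate 1 it was 0.05. FBP1, for the fructose bisphosphatase, measured 874, 913 and 1011 CPM in pex3, against 1012, 850.2 and 907 CPM in WT. Its libraries overlapped fully, and the log2 fold change was 0.02 (95% interval -0.20 to 0.23, edgeR adjusted p 0.969). For FBP1 the interval leaves out differences beyond 1.17-fold up and 0.870-fold down.

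SFC1, the succinate-fumarate carrier gene, measured 729.6, 898 and 984 CPM in pex3, against 1158, 962 and 974 CPM in WT. The lowest value was in pex3 replicate 1 and the highest in WT replicate 1, the libraries at the ends of the first principal component, and pex3 replicate 3 lay above WT replicates 2 and 3. The log2 fold change was -0.24 (95% interval -0.54 to 0.05, edgeR adjusted p 0.578). Without WT replicate 1 and pex3 replicate 1 it was -0.04 (edgeR adjusted p 0.904). DIC1, for the phosphate-linked dicarboxylate carrier, measured 100.2, 115 and 130.4 CPM in pex3, against 107, 109 and 110.4 CPM in WT. The pex3 libraries spread around the narrow WT range on both sides. The log2 fold change of DIC1 was 0.08 (95% interval -0.15 to 0.31, edgeR adjusted p 0.804).

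PYC1 measured 695, 725 and 701 CPM in pex3, against 735, 736 and 775 CPM in WT. The pex3 libraries were all lower, as for 7.73% of all genes, by a small margin. Its log2 fold change was -0.08 (95% interval -0.24 to 0.07, edgeR adjusted p 0.694). PYC2 measured 566, 650.4 and 728 CPM in pex3, against 796, 705 and 712 CPM in WT, and its libraries overlapped. The log2 fold change of PYC2 was -0.19 (95% interval -0.43 to 0.06, edgeR adjusted p 0.595), and -0.04 without WT replicate 1 and pex3 replicate 1.

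**Figure D2:**
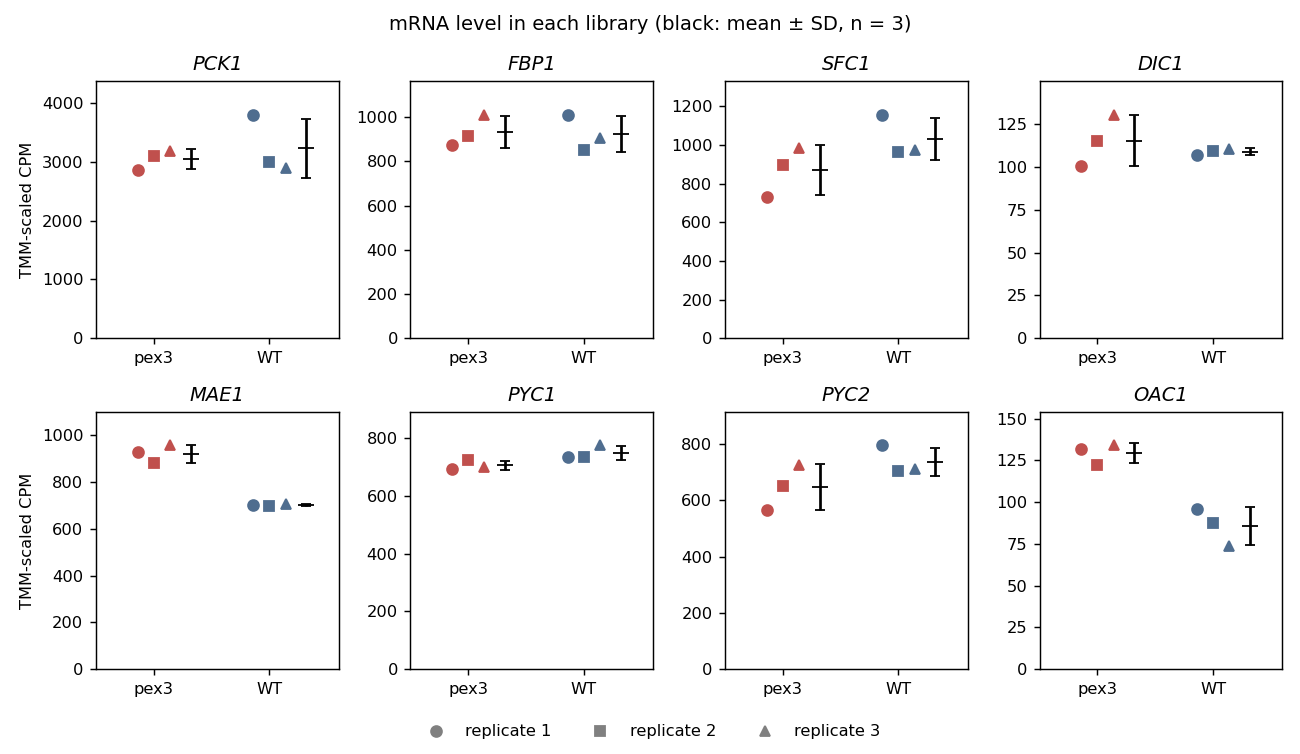
TMM-scaled CPM of each of the 7 genes and of the carrier gene OAC1 in the 3 pex3 libraries (red, left) and the 3 WT libraries (blue, right), with the mean ± SD in black. MAE1 and OAC1 are the panels in which the strains are clearly apart, and in the PCK1, SFC1 and PYC2 panels WT replicate 1 (circle) is the highest point.

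Ratios of counts within a library do not depend on library scaling. The pyruvate carboxylase counts came from PYC1 by 55.1%, 52.7% and 49.1% in the pex3 libraries, against 48.0%, 51.1% and 52.1% in the WT libraries. The strains overlapped, with a mean of 52.3% ± 3.04 in pex3 and 50.4% ± 2.12 in WT (SD, n = 3 each). A two-sided exact permutation test gave p = 0.4, where 0.1 is the smallest p that 3 against 3 libraries allow. The counts were thus split about evenly between the isoenzyme genes in both strains. The 95% Wilson intervals of these shares, which cover counting error only, were at most 1 percentage point to either side. Without WT replicate 1 and pex3 replicate 1 the difference between the strains was -0.693 percentage points, against 1.90 with all libraries.

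The ratio of MAE1 counts to the summed PYC1 and PYC2 counts, a pair of opposing reactions around pyruvate, was 0.736, 0.639 and 0.669 in the pex3 libraries, against 0.458, 0.484 and 0.476 in the WT libraries. The mean was 0.682 ± 0.0496 in pex3 and 0.472 ± 0.0133 in WT (SD, n = 3 each), 1.44 times as high in pex3. MAE1 over PCK1 was 0.325, 0.283 and 0.301 in pex3, against 0.184, 0.233 and 0.245 in WT. The strains were apart in both ratios. SFC1 over DIC1 was 7.28, 7.79 and 7.55 in pex3, against 10.8, 8.80 and 8.82 in WT, and the strains were apart here too, in the other direction. PCK1 over FBP1 was 3.263, 3.399 and 3.145 in pex3, against 3.756, 3.523 and 3.182 in WT, and here the strains overlapped. These ratios were chosen with the values known and are descriptions without a test. How often the strains are apart in ratios of other genes was not counted. Both MAE1 ratios hold the difference in MAE1 already given.

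**Figure D3:**
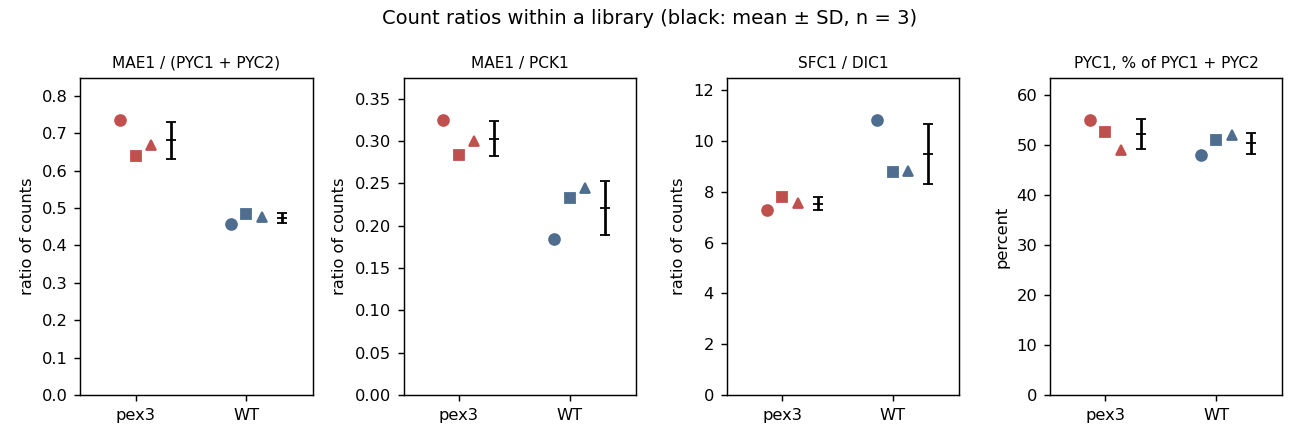
Ratios of counts within each library for 4 gene pairs or sums, pex3 libraries in red on the left and WT libraries in blue on the right, with the mean ± SD in black. MAE1 over the pyruvate carboxylases and MAE1 over PCK1 are higher in each pex3 library than in each WT library, SFC1 over DIC1 is lower, and the PYC1 share overlaps around 50.4% to 52.3%. PCK1 over FBP1, in which the strains overlapped, is not drawn.

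The 7 genes did not all vary together from culture to culture. As deviations of log2 CPM from the mean of the 6 libraries, SFC1, PYC2 and PCK1 were at -0.37, -0.28 and -0.13 in pex3 replicate 1 and at 0.30, 0.21 and 0.28 in WT replicate 1. MAE1 did not share this pattern. Its values of 0.21 in pex3 replicate 1 and -0.20 in WT replicate 1 lay within the range of the same strain. The other MAE1 values were 0.129 and 0.25 in pex3 and -0.205 and -0.185 in WT. Of the 7 genes, 5 were at their lowest in pex3 replicate 1 and 4 at their highest in WT replicate 1. The SD of log2 CPM over the 6 libraries was 0.22 for MAE1 and SFC1, 0.17 for PYC2 and 0.06 for PYC1, the steadiest. Libraries also differed in how their values ran with gene length. Across genes, Spearman's rho of the deviation with length was 0.336 in WT replicate 1, -0.39 in WT replicate 3 and between -0.158 and 0.163 in the pex3 libraries. A correction for gene length left the log2 fold changes at 0.40 for MAE1, -0.22 for SFC1 and -0.18 for PYC2.

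**Figure D4:**
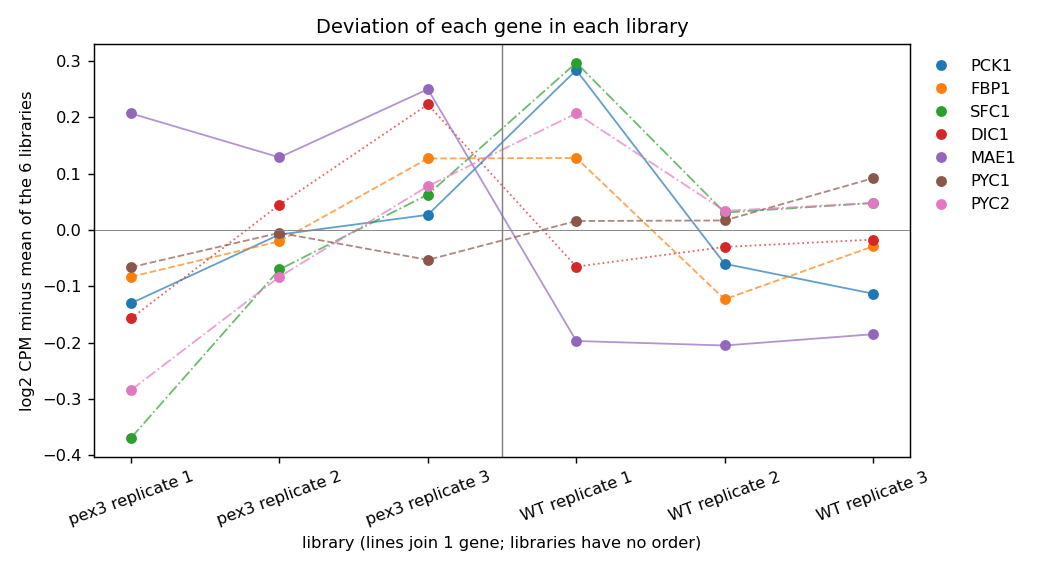
Deviation of log2 CPM from the 6-library mean of the same gene, for the 7 genes in the 3 pex3 libraries (left of the vertical line) and the 3 WT libraries (right). MAE1 is above 0 in each pex3 library and below 0 in each WT library, whereas SFC1, PYC2 and PCK1 are lowest in pex3 replicate 1 and highest in WT replicate 1.

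The genes with the most similar profile were searched for the 3 genes that varied most, as the smallest root mean square difference between the 6 deviations among 5344 other genes with a mean count of at least 50. Nearest to MAE1 were FSF1, which encodes a mitochondrial sideroflexin-family protein, at 0.04 log2 units, and the nuclear pore genes POM34 and PML39 at 0.06 and 0.07, where the median gene was at 0.228. Nearest to SFC1 were YGR237C, SLM1 and BXI1 at 0.02 to 0.04 log2 units. Nearest to PYC2 were IXR1, PKP1 and BCY1 at 0.02 to 0.03. PKP1 encodes a kinase of the pyruvate dehydrogenase complex and BCY1 the regulatory subunit of protein kinase A. The log2 fold changes of the genes near MAE1 lay between 0.30 and 0.33, and none of these 9 genes passed the edgeR test (adjusted p 0.28 or higher). Fold changes near that of the gene searched for follow from this way of choosing, since the 6 deviations hold the strain difference.

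Other mitochondrial metabolite carriers were read from a list of 10 genes. Of these, 0 passed the edgeR adjusted p, 1 had an unadjusted p under 0.05 and DESeq2 called 1, in both cases OAC1. Of all genes, 9.08% had an unadjusted p under 0.05 and DESeq2 called 1.03%. The list had a median log2 fold change of 0.05, which was 0.01 without WT replicate 1 and 0.09 without WT replicate 3 or pex3 replicate 1. OAC1, the oxaloacetate carrier that also exports isopropylmalate for leucine synthesis, measured 132, 122 and 134 CPM in pex3, against 95.9, 87.6 and 73.5 CPM in WT. The strains did not overlap, as for 8.72% of all genes with pex3 higher. The log2 fold change of OAC1 was 0.60 (SE 0.10, 95% interval 0.36 to 0.84, edgeR adjusted p 0.118), and its adjusted p ran from 0.00115 to 0.531 over the alternatives. Without WT replicate 1 it was called, at 0.69 with an edgeR adjusted p of 0.0483. MPC3, a subunit of the mitochondrial pyruvate carrier, averaged 82.4 ± 5.97 CPM in pex3 and 65.4 ± 23.9 CPM in WT, with an edgeR adjusted p of 0.658. The carriers of the list with the highest levels per kb were ODC1 for oxodicarboxylates, YHM2 for citrate and oxoglutarate and CRC1 for carnitine, with log2 fold changes of 0.08, 0.01 and -0.02.

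MAE1 and OAC1, the only genes among these 17 with an unadjusted p under 0.05, were looked at for a shared upstream motif. Leu3, the regulator of branched-chain amino acid genes, is known to bind pairs of CGG triplets that point away from each other. CCG, any 4 bases and CGG in a row, a pattern whose reverse complement is the same, occurred in 234 of 6005 upstream windows of 600 bases, or 3.9%. They were present once each upstream of MAE1 (161 bases before the start codon), OAC1 (484 bases) and SFC1 (483 bases), and also upstream of ODC1 and MPC3. SFC1, ODC1 and MPC3 differ from MAE1 and OAC1 in that their pex3 and WT libraries overlapped. The 3 stretches are shown so that the spacer bases can be compared, with the match in capitals, from chrXI:384867-384896 (minus strand) for MAE1, chrXI:216850-216879 (plus strand) for OAC1 and chrX:609280-609309 (plus strand) for SFC1. No match overlapped a copy of the other motif.
MAE1: gaagtcgtacCCGTTACCGGcatgattgac
OAC1: ccgaaagatgCCGGAAACGGtcttaggccg
SFC1: tcccggtaaaCCGCAAACGGaccttaattg
The 205 tested genes with this motif had a median log2 fold change of 0.0012, beside 0.0056 over all genes, and 1 of them passed the edgeR test, against 0.178% of all genes. Their libraries were apart with pex3 higher for 25 and with pex3 lower for 13, against 491 and 435 of all 5628 genes (8.72% and 7.73%). The 25 include MAE1 and OAC1, whose values led to the search, so the count is not independent of them. The search was made after the values of MAE1 and OAC1 were known.

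Enzymes around malate and oxaloacetate formed a list of 8, and 0 of them passed the edgeR test, 0 had an unadjusted p under 0.05 and DESeq2 called 0. Their median log2 fold change was 0.12, and it was 0.07 without pex3 replicate 3 or WT replicate 2. Of the 8, 6 were above 0, as were 2894 of all 5628 genes. The strains were apart for 1 of the 8, MDH3, with pex3 higher, as for 8.72% of all genes. The largest were fumarase FUM1, at 2191 ± 116 CPM in pex3 and 1955 ± 123 CPM in WT, and the mitochondrial malate dehydrogenase MDH1, at 1868 ± 66.5 CPM in pex3 and 1672 ± 185 CPM in WT (SD, n = 3 each). Their log2 fold changes were 0.16 each, with edgeR adjusted p of 0.567 and 0.609. Upstream of 4 of the 8, namely MDH2, MDH3, MLS1 and ICL1, the core letters of the carbon source responsive element were found.

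The regulators of gluconeogenic transcription, a list of 9 that holds CAT8, SIP4 and ADR1, had a median log2 fold change of -0.07, and 0 passed the edgeR test, had an unadjusted p under 0.05 or were called by DESeq2. The median was 0.04 without WT replicate 1 and pex3 replicate 1, 0.03 without pex3 replicate 1 alone, -0.03 without WT replicate 1 alone, -0.13 without WT replicate 3 and -0.195 without pex3 replicate 3. The glucose repressor gene MIG1 measured 101, 128 and 144 CPM in pex3, against 210.3, 161 and 119.8 CPM in WT. Its highest and lowest values were again in WT replicate 1 and pex3 replicate 1, and its log2 fold change was -0.39 (95% interval -0.87 to 0.09, edgeR adjusted p 0.587). SNF4, for the activating subunit of the Snf1 kinase, had a log2 fold change of -0.15 (edgeR adjusted p 0.615). The core letters of the carbon source responsive element were found upstream of 2 of the 9, SIP4 and ERT1.

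The GID ubiquitin ligase marks Fbp1 and Pck1 for degradation when glucose returns. Of its 11 genes, 10 had a log2 fold change below 0, as did 2734 of all 5628 genes, and the median was -0.23. However, 0 passed the edgeR test and DESeq2 called 0. At an unadjusted p under 0.05 there were 2, RMD5 and GID11, named after their values were seen (5.15% of all genes were lower at that p). The median was -0.11 without WT replicate 1 and pex3 replicate 1, and also -0.11 without pex3 replicate 1 alone. The strains were apart for 1 of the 11, VID28, with pex3 lower, as for 7.73% of all genes. VID24, the substrate receptor for Fbp1, measured 269, 218 and 244 CPM in pex3, against 539.9, 334 and 210.4 CPM in WT. WT replicate 1 was far above the rest, and the log2 fold change was -0.57 (95% interval -1.25 to 0.11, edgeR adjusted p 0.578). GID10, an alternative receptor, was low, with 9 to 11 counts per pex3 library and 9 to 19 per WT library (log2 fold change -0.63, edgeR adjusted p 0.615).

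Of 7 genes for pyruvate kinase, phosphofructokinase and the enzymes that make or break down the sugar phosphate regulating it, 0 passed the edgeR test. At an unadjusted p under 0.05 there was 1, against a share of 9.08% of all genes. DESeq2 called 0, and the median log2 fold change was -0.17. That median was -0.10 without pex3 replicate 1 and -0.23 without pex3 replicate 3. The gene with the low p was FBP26, whose product breaks down the regulatory sugar phosphate that inhibits Fbp1. It measured 67.7, 69.4 and 73.9 CPM in pex3, against 96.3, 86.5 and 80.4 CPM in WT. The strains did not overlap, with pex3 lower, as for 7.73% of all genes. The log2 fold change was -0.32 (95% interval -0.52 to -0.12, edgeR adjusted p 0.438). PFK27, whose product makes the same sugar phosphate, had a log2 fold change of -0.48 (edgeR adjusted p 0.615), with its highest value, 72.5 CPM, in WT replicate 1.

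Biotin is the cofactor of Pyc1 and Pyc2. Of 6 genes for biotin synthesis, uptake and attachment, 0 passed the edgeR test, 0 had an unadjusted p under 0.05 and DESeq2 called 0, with a median log2 fold change of -0.17. That median was -0.10 without pex3 replicate 1, -0.11 without WT replicate 2 and -0.22 without WT replicate 1. The libraries of the strains were apart for 3 of the 6, with pex3 higher for BPL1 and lower for BIO2 and BIO5. Over all genes tested, 16.5% were apart in either direction, 8.72% with pex3 higher and 7.73% with pex3 lower. BIO5, for the uptake of a biotin precursor, averaged 6.66 ± 1.28 CPM in pex3 and 9.11 ± 0.594 CPM in WT (edgeR adjusted p 0.539). The biotin transporter gene VHT1 averaged 158 ± 24.5 CPM in pex3 and 179.9 ± 28.0 CPM in WT (edgeR adjusted p 0.678). Upstream of 1 of the 6, BIO2, the core letters of the carbon source responsive element were found.

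**Figure D5:**
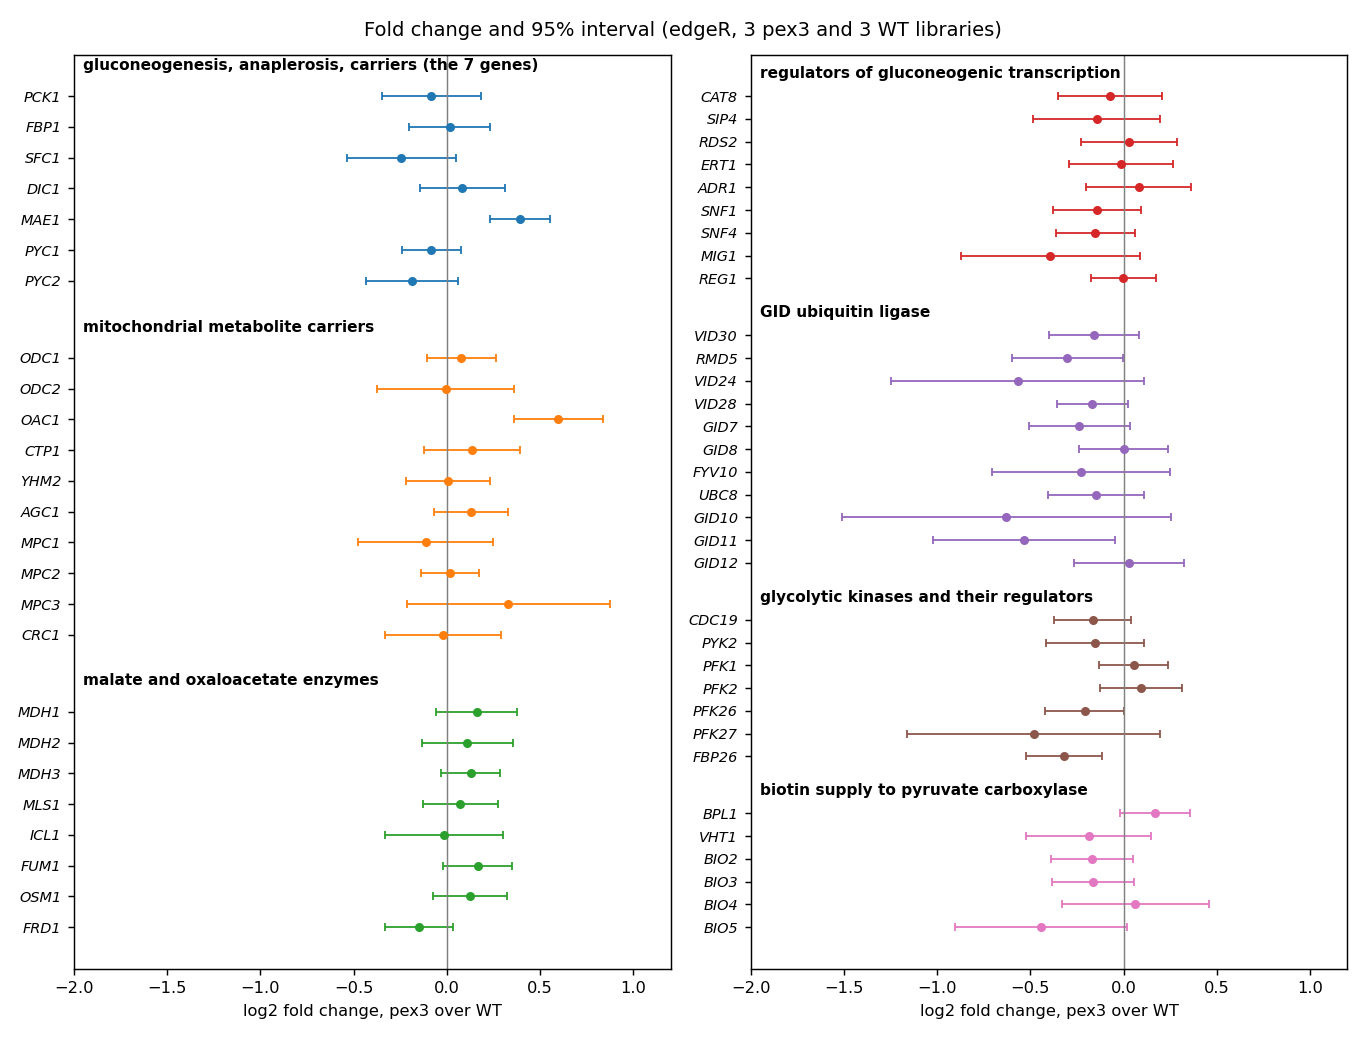
Log2 fold change of pex3 over WT with its 95% interval from edgeR for the 7 genes and for 6 lists of pathway genes, 1 point per gene. The intervals of MAE1 (0.23 to 0.55) and OAC1 (0.36 to 0.84) lie above 0, those of FBP26 (-0.52 to -0.12), RMD5 (-0.600 to -0.004) and GID11 (-1.02 to -0.04) below 0, and those of PCK1, FBP1, SFC1, DIC1, PYC1 and PYC2 include 0.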

How the data were processed

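The authors deposited 1 table of whole-number read counts per gene, with 1 column per library, and each column was matched to the sample title of the same strain and number. The submitters' processing notes name fastp 0.20.0, STAR, RSEM 1.3.3 and the build R64; their roles, the annotation, filters and use of strand are not given in the sources used here. If RSEM made the counts, reads shared by PYC1 and PYC2 were divided by its model. The test was the quasi-likelihood test of edgeR 4.0.16 under R 4.3.3 (TMM factors, strain as the sole term, all 6 libraries). filterByExpr removed 3 rows and left 5628, over which p-values were adjusted. The threshold was 0.05. The SE is the log2 fold change divided by the square root of F, and intervals use the test's degrees of freedom. Log2 CPM carried a prior count of 2. The test was checked on simulated counts, drawn for each gene separately with the strain as the only difference. That check does not cover differences that many genes share between libraries, such as the trend with gene length.

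Coordinates, coding lengths and sequences come from RefSeq R64, the build the notes name. Rows with a length numbered 5522 of 5631. Named genes were the 7 genes, the genes nearest in profile, any called gene or otherwise the 2 with the largest change per list, and the 3 highest carriers per kb. Strain markers, and those of the 7 genes and of the lists with a motif match, were named as well. Also named, after their values were seen, were MDH3, VID28, BPL1 and BIO2, whose libraries did not overlap, and RMD5 and GID11 for their unadjusted p. The genes, the lists and the naming rule were chosen with earlier results of these data known. Alternatives were DESeq2 1.42.0, RLE factors, no filter, the replicate number as a block, a length correction (loess, span 0.3), leaving out each library and, chosen after seeing the data, leaving out WT replicate 1 with pex3 replicate 1.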

Additional observations from a re-analysis of the deposited data

How the results depend on the processing

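Of all genes tested, 8 were called higher and 2 lower in pex3. DESeq2 called 26 higher and 32 lower, the replicate block 1 and 0, and the fit without WT replicate 1 and pex3 replicate 1 called 34 and 20. Leaving out each library gave 3 to 12 higher and 0 to 5 lower. Among the 7 genes, 1 was called higher by DESeq2 and 1 without those 2 libraries, MAE1 both times, at log2 fold changes of 0.39 and 0.38 (adjusted p 0.000121 and 0.0471). Leaving out 1 library called 0 of the 7, with MAE1 from 0.36 to 0.42. Of the carriers, 1 was called by DESeq2 and 1 without the 2 libraries, and 0 to 1 when leaving out each library, OAC1 each time. The cause was not tested.

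Signs turned for genes near 0. When each library was left out, PCK1 ranged from -0.158 to 0.051, FBP1 from -0.046 to 0.086 and DIC1 from -0.014 to 0.173. Without the 2 libraries PCK1 was at 0.092 and FBP1 at 0.127, and the difference in PYC1 share was -0.693 percentage points (exact permutation p = 1). With each library left out that difference was 0.491 to 3.51 points. RLE factors, no filter and the length correction kept the sign of all 7 genes and called 0 of them.

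In the column headers, libraries of the same number share a prefix across the strains, and what it stands for is not given. Same-numbered libraries deviated from their strain means with correlations of -0.157, 0.23 and -0.261, and 2 of 6 libraries correlated best with their own number. With 3 libraries per strain this cannot exclude pairing. The main test did not take the numbers as pairs, and the replicate block did. With the replicate block the log2 fold change of MAE1 was 0.39 (adjusted p 0.356). Fits on fewer libraries or with the block have fewer residual degrees of freedom. The p-values set the strain difference against the spread between these cultures.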
